A study of Homo sapiens with 10 samples.

Results

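Glycolysis and hypoxia response genes comprise the glucose transporters, glycolytic isoenzymes, lactate transporters and hypoxia-inducible factor (HIF) genes that were examined here in MDAMB231, a triple-negative human breast cancer cell line. The members were chosen by name and located in the GENCODE v44lift37 annotation, where 44 of 44 were found among 20098 protein-coding genes of chromosomes 1 to 22 and X. Of these, 31 belong to glycolysis and its regulation and 13 to the hypoxia response. The cells were grown in DMEM with 5% FBS, and no low-oxygen treatment is given in the labels, so all values are from 1 untreated condition. ChIP-seq, which recovers DNA bound to a modified histone, was carried out for H3K4me3, H3K27Ac and H3K4me1 with 2 libraries each and 1 input. FAIRE-seq, which recovers nucleosome-depleted DNA after crosslinking with 1% formaldehyde, was carried out with 2 libraries and 1 input. The libraries were also analysed separately in the study, but the lists used here are of the combined data, with a single list for each assay, so no error between replicates is given for any value below.

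The lists held 18019 H3K4me3, 37495 H3K27Ac, 26771 H3K4me1 and 46552 FAIRE peaks, and they hold no read totals. A histone peak carries the MACS score, which is the log10 of its p-value multiplied by minus 10. Scores cannot rank peaks above a ceiling near 3100, which was reached by 56.8% of H3K4me3 peaks and 10.5% of H3K27Ac peaks, so such peaks were compared by width. A FAIRE peak carries the height given by the peak caller, with a median of 61.1 and a scaling that is not stated. A promoter peak shared at least 1 base with any annotated start of the gene widened by 1 kb, and the window of a gene was its bounds widened by 20 kb. The main start is that of the MANE Select transcript, or of the Ensembl canonical transcript where there is none, and distances are counted from it along the direction of transcription.

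Glycolysis converts glucose to pyruvate in the cytosol. Many of its steps can be catalysed by isoenzymes that are encoded by separate genes and used by different tissues. Tumour cells often take up glucose and secrete lactate even in the presence of oxygen. When oxygen is scarce, the prolyl hydroxylases no longer mark HIF alpha subunits for degradation, and HIF with its partner ARNT binds the letters ACGTG or GCGTG at target genes, among them glucose transporters, glycolytic enzymes, VEGFA and CA9. H3K4me3 marks the starts of active or permissive genes, H3K27Ac marks active promoters and enhancers, and H3K4me1 marks enhancers and the flanks of promoters.

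Promoter sequence was read from GRCh37 (hg19) to show the letters at the starts of members that are contrasted below. It runs from 250 bases before to 50 bases from the main start on, on the strand of the gene. Capitals mark ACGTG and GCGTG on either strand, which appear as CACGT and CACGC when the match is on the opposite strand. At least 1 of the pair was present in 36 of the 44 members (81.8%) and in 56.4% of all coding promoters of the same length. ACGTG was found in 20 members (45.5%) and in 23.2% of coding promoters, and GCGTG in 24 members (54.5%) and in 44.9%. ACGTG also lies within CACGTG, the letters of an E-box, which were found in 7 members and in 8.74% of coding promoters. CACGTG reads the same on both strands and is counted as 1 stretch below. A match describes the letters only, and no binding of HIF was measured. Each sequence below stands for a contrast described later, and the member shown for a contrast was chosen after its values were seen.

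The first set holds genes whose main start had an H3K4me3 peak: SLC2A1 (chr1:43424490-43424789, minus strand), HK2 (chr2:75061004-75061303, plus strand), LDHA (chr11:18415860-18416159, plus strand) and BNIP3 (chr10:133795378-133795677, minus strand). They are shown because LDHA held 4 marked stretches (2 of them CACGTG), BNIP3 held 5 (1 of them CACGTG), HK2 held 3, and SLC2A1 had H3K4me3 without H3K27Ac.
SLC2A1: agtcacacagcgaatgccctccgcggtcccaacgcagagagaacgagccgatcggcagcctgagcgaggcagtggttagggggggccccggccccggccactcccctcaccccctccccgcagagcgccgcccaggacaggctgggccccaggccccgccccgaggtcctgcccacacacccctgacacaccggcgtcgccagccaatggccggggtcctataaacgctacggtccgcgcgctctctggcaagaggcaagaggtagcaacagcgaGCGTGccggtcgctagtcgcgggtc
HK2: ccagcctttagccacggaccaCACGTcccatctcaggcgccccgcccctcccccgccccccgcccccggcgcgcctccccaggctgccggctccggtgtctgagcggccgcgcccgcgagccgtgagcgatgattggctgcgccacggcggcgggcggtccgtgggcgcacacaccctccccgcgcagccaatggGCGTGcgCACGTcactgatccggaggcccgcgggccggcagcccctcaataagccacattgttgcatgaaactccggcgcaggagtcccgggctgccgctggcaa
LDHA: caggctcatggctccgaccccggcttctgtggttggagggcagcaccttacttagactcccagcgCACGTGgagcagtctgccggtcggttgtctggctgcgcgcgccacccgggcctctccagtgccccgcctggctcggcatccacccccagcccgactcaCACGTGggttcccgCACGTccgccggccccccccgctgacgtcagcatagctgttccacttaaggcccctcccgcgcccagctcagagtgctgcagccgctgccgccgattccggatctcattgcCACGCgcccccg
BNIP3: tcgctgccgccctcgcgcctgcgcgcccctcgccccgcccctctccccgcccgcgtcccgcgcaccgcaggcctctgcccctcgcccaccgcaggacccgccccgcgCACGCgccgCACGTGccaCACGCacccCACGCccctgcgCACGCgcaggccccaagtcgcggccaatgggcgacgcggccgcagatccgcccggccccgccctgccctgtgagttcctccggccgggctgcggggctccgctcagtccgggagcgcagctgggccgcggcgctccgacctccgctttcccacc

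The second set holds genes without an H3K4me3 peak at the main start: ALDOC (chr17:26903864-26904163, minus strand), PKLR (chr1:155271180-155271479, minus strand), SLC16A1 (chr1:113498769-113499068, minus strand) and CA9 (chr9:35673675-35673974, plus strand). They are shown because the same letters were present where the lists had no promoter peak at the main start, with 4 marked stretches each in ALDOC and SLC16A1 (1 of them CACGTG) and 1 each in PKLR (CACGTG) and CA9.
ALDOC: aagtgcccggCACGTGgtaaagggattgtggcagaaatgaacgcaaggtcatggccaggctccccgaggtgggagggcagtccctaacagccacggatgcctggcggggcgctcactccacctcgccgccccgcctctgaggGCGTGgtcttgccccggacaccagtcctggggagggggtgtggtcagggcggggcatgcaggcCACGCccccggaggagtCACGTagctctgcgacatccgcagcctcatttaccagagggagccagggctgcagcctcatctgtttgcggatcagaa
PKLR: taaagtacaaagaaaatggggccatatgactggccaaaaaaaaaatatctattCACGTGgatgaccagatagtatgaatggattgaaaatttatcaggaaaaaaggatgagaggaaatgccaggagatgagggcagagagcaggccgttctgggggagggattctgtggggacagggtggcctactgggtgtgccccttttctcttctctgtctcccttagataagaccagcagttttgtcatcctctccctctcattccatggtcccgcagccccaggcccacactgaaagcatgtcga
SLC16A1: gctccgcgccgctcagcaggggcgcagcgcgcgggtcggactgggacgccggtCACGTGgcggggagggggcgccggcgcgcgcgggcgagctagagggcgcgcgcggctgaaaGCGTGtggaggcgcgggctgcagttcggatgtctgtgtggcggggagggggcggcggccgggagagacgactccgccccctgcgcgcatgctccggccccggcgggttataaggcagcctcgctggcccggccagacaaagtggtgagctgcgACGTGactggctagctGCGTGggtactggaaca
CA9: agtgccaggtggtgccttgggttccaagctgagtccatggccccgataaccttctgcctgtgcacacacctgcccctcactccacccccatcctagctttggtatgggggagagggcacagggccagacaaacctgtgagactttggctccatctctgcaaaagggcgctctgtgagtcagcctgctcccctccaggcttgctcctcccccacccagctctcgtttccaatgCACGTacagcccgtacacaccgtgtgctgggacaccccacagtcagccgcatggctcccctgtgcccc

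In CA9 the match to ACGTG began 18 bp before the main start on the opposite strand, and in EGLN1 a match began 13 bp before it. The 8 members with neither motif in this window were HK3, PFKM, TPI1, ENO3, PFKFB1, PFKFB2, ARNT and EGLN3. Among members with an H3K4me3 peak at the main start 29 of 35 (82.9%) held a match, and among members without one 7 of 9 (77.8%) did. Over all coding promoters these shares were 65% and 40.9%. Taken singly, at main starts with an H3K4me3 peak, GCGTG was found in 54.3% of members and 53.3% of coding promoters. CACGTG was found there in 11.4% and 10.1%, and ACGTG in 42.9% and 26.3%.

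Most members carried the marks of an active promoter. An H3K4me3 promoter peak was present at 36 of 44 members (81.8%), against 67.3% of all coding genes. An H3K27Ac promoter peak was likewise present at 36 members, against 63.5% of coding genes. H3K4me1 was found at 19 members (43.2%) and FAIRE at 23 (52.3%), with 20% and 39.3% of coding genes. Peaks of all 4 lists were present in 14 members (31.8%) and in 13.1% of coding genes when any start counted, so that they could lie at different starts of a gene. Within 1 kb of the main start all 4 were present in only 4 members (9.09%), against 6.5% of coding genes. No promoter peak of any list was present at 7 members (15.9%), against 29.3% of coding genes, and these were HK3, ALDOC, GAPDHS, PGAM2, PKLR, LDHC and CA9. Only SLC2A1 had H3K4me3 without H3K27Ac, a state of 6.05% of coding genes, and only SLC16A1 had H3K27Ac without H3K4me3. These are descriptions of a chosen list, and no test was made over its members.

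**Figure D1:**
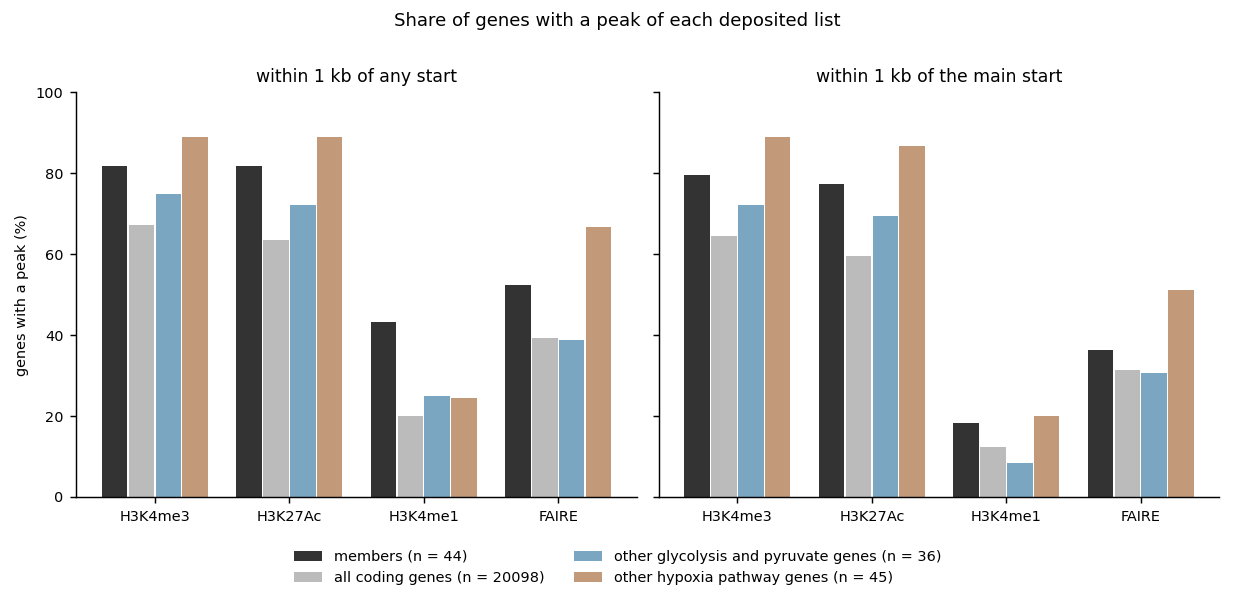
Share of genes (%) with a peak of each list within 1 kb of any start (left) and of the main start (right), for the 44 members, all 20098 coding genes and the other genes of the pathways. The shares of members were 81.8% for H3K4me3 and 43.2% for H3K4me1 over any start, and 79.5% and 18.2% at the main start.

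The number of annotated starts bears on these shares, since a gene with more starts has more chances of a peak. The members had a median of 10 starts, from 1 in PGAM2 to 47 in NDRG1, and coding genes had a median of 5. At the main start alone, H3K4me3 was within 1 kb in 35 members (79.5%) and 64.4% of coding genes, and H3K27Ac in 34 members (77.3%) and 59.5%. H3K4me1 was within 1 kb in 8 members (18.2%) and 12.3% of coding genes, and FAIRE in 16 members (36.4%) and 31.4%. All 8 members with H3K4me1 at the main start were glycolysis genes, but among the other genes of the pathways the order was the reverse, with 3 of 36 glycolysis genes (8.33%) and 9 of 45 hypoxia genes (20%). When only the most upstream start of each gene was used, H3K4me1 was present at 8 members (18.2%, against 11.9% of coding genes), of which NDRG1 and ANKRD37 are hypoxia genes, and 11 members had no peak (25%, against 35.4%). Under that setting the members no longer exceeded coding genes in FAIRE, with 13 members (29.5%, against 30.6%), or in all 4 lists, with 2 members (4.55%, against 6.06%). With peaks of lower score or height left out, H3K4me1 remained at 12 members (27.3%, against 11.2%) and all 4 lists at 8 (18.2%, against 5.49%).

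The marks differed in where they lay around the main start. The start was inside an H3K4me3 peak in 35 members (79.5%, against 63.4% of coding genes) and inside an H3K27Ac peak in 34 (77.3%, against 58.5%). It was inside an H3K4me1 peak in only 3 members (6.82%, against 4.97%), PFKM, ENO2 and PFKFB4, and inside a FAIRE peak in 13 (29.5%, against 26%). Of the 35 members whose start was inside an H3K4me3 peak, FAIRE also covered the start in 13 (37.1%), and over all coding genes this share was 40.2%. Of the 8 members with H3K4me1 within 1 kb of the main start, the remaining 5 had the peak beside the start rather than over it.

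**Figure D2:**
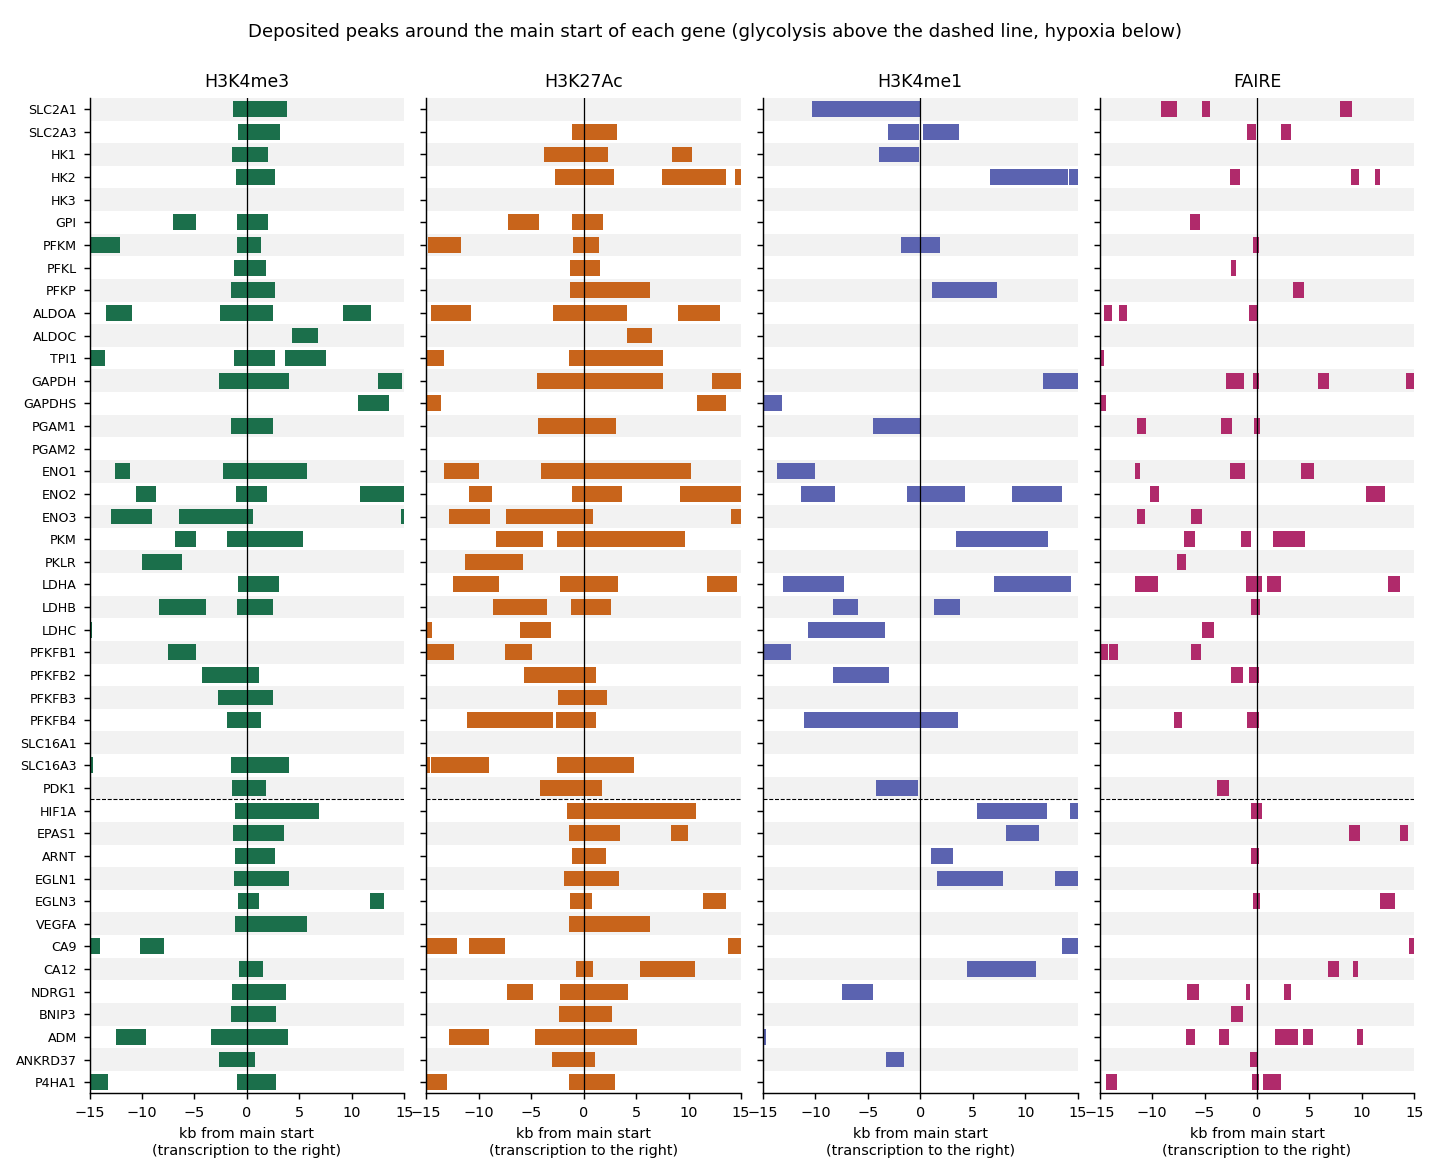
Peaks of the 4 lists within 15 kb of the main start of each member, with distance in kb along the direction of transcription on the x axis and 1 row per gene. H3K4me3 and H3K27Ac bars cross the start in 35 and 34 rows, H3K4me1 bars cross it in 3, and the rows of HK3, PGAM2 and SLC16A1 hold no bar in this range.

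The label of the cell line was compared with marker genes. Promoter H3K27Ac and FAIRE, found at 63.5% and 39.3% of coding genes, were present at 8 of 8 markers of mesenchymal and basal-like lines (VIM, ZEB1, AXL, CD44, CAV1, EGFR, SPARC and FN1). Among 8 luminal or epithelial markers, H3K27Ac was absent at the hormone receptor genes ESR1 and PGR and at FOXA1, and present at 5, GATA3, CDH1, EPCAM, KRT8 and KRT19. H3K4me3 did not follow this division, since it was absent at CDH1 and at SPARC and present at ESR1, PGR and FOXA1. Of 4 markers of normal basal mammary epithelium, KRT5, KRT14 and KRT17 had no promoter peak in any list and TP63 had H3K4me3, H3K27Ac and H3K4me1. FAIRE was also present at 4 of the 8 luminal or epithelial markers, FOXA1, CDH1, EPCAM and KRT8, and within 1 kb of the main start it was present at 4 of the 8 mesenchymal and 1 of the 8 luminal or epithelial markers. All mesenchymal and basal-like markers thus had H3K27Ac, and the hormone receptor genes ESR1 and PGR of this triple-negative line lacked it. Over any start, the luminal or epithelial markers as a group had H3K27Ac about as often as coding genes do. Within 1 kb of the main start H3K27Ac was present at 3 of these 8 (37.5%), against 59.5% of coding genes and 8 of 8 mesenchymal markers. The reading of the luminal or epithelial group therefore depended on which starts were counted.

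The glucose transporters import glucose across the plasma membrane, SLC2A1 (GLUT1) in most tissues and SLC2A3 (GLUT3) with high affinity, chiefly in neurons. At SLC2A1 an H3K4me3 peak at the score ceiling (chr1:43420760-43425838) ran from 1299 bp before to 3779 bp after the main start and was 5079 bp wide. An H3K4me1 peak of 7053 bp with a score of 210 ended 28 bp before the start, and 8 FAIRE peaks lay in the window, of which the highest, 128, was 15.2 kb to 16.1 kb inside the gene at an alternative start. The window held no H3K27Ac peak, and the nearest was 109 kb from the main start. Of 12937 coding genes with H3K4me3 at the main start, 220 (1.7%) had their nearest H3K27Ac peak at least that far away. Whether such absences are gaps in the H3K27Ac list was not tested. Among 714 coding genes with an H3K4me3 peak at least as wide at the main start, 9 (1.26%) had no H3K27Ac peak within 1 kb of it. The combination of H3K4me3, H3K4me1 and FAIRE without H3K27Ac was shared by 22 coding genes (0.109%).

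SLC2A3 had all 4 marks. Its H3K4me3 peak was 3939 bp wide, its H3K27Ac peak was 4285 bp wide with a score of 1402, and H3K4me1 peaks lay on either side of the start, ending 83 bp before it with a score of 73.1 and beginning 248 bp after it with a score of 70.5. The FAIRE peak before the start had a height of 45.1. The window of SLC2A3 contained 3 distal H3K27Ac peaks, that is, peaks sharing no base with any annotated start widened by 1 kb, and of these the strongest was 90.9 kb before the main start with a score of 2926, closer to the start of another gene.

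Hexokinases phosphorylate glucose in the first step of glycolysis. HK1 is the widely expressed form, HK2 is the form of muscle, fat and many tumours and a known HIF target, and HK3 is found mainly in blood cells. HK1 and HK2 had strong promoter peaks and HK3 had none. At HK1 the H3K4me3 peak was 3396 bp wide and the H3K27Ac peak 6060 bp with a score of 2345, and an H3K4me1 peak with a score of 75.6 ended 147 bp before the main start. FAIRE was absent there, and the promoter call of HK1 for FAIRE came from peaks near alternative starts, 41.5 kb and more inside the gene.

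At HK2 the H3K4me3 peak (chr2:75060198-75063902) was 3705 bp wide and the H3K27Ac peak was 5621 bp wide with a score of 1212. HK2 held 4 distal H3K27Ac peaks, the most of any glycolysis member, and 3 of them shared sequence with H3K4me1 and FAIRE peaks. These were centred 10.5 kb, 32.3 kb and 59.6 kb after the start, with H3K27Ac scores of 3100, 2095 and 3230. In all, H3K27Ac peaks covered 29.4% of the HK2 window, against 12.7% of the HK1 window. HK1 held 2 distal H3K27Ac peaks, and the stronger of them was 7480 bp wide, at the ceiling, centred 32 kb after the start and open, with a FAIRE height of 122.

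The HK3 window of 58.5 kb held no peak of any list. The nearest peaks to its main start were an H3K4me3 peak 80600 bp away and an H3K4me1 peak 96280 bp away. HK3 also had few CpG dinucleotides, 4 in the 300 bases at its start, where HK1 had 44 and HK2 had 38.

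**Figure D3:**
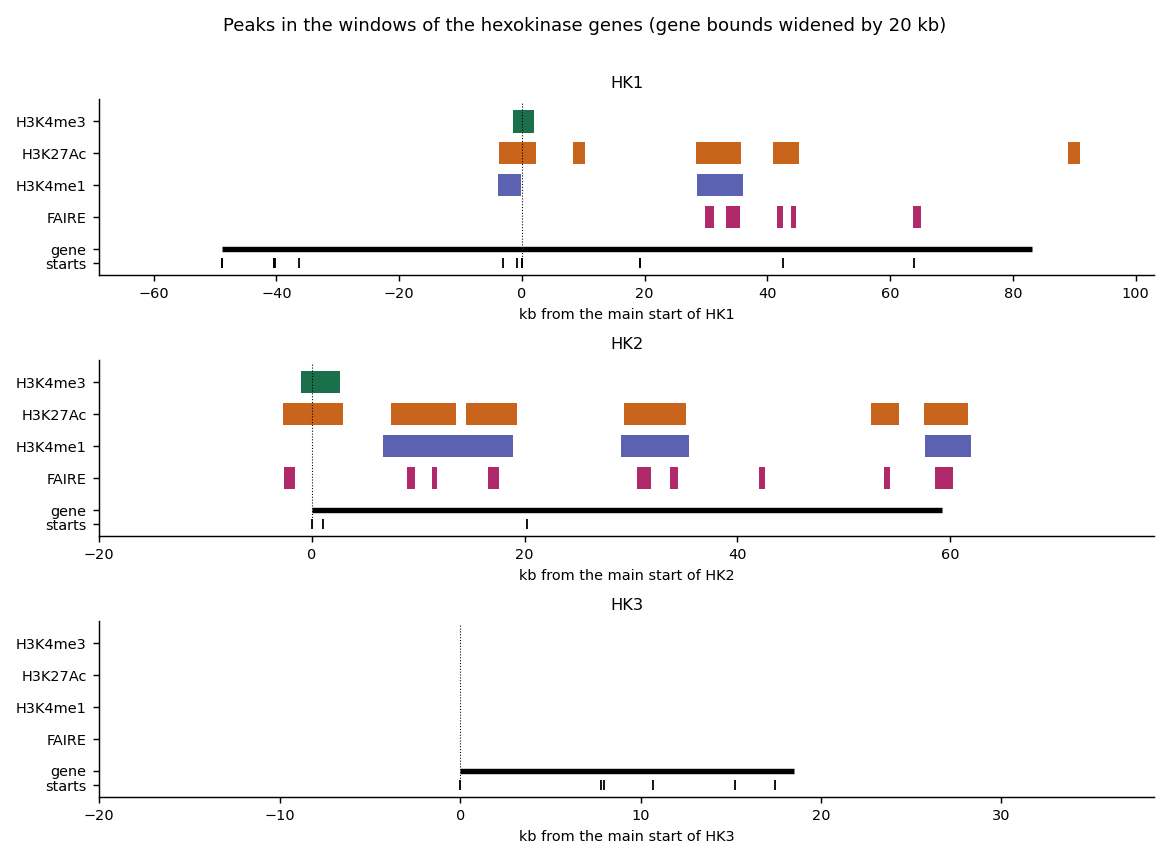
Peaks of the 4 lists in the windows of HK1, HK2 and HK3, by distance in kb from the main start (dotted line), with the gene bounds as a black bar and annotated starts as ticks. HK2 has 4 distal H3K27Ac peaks and HK1 has 2, while the HK3 window holds no peak.

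Glucose-6-phosphate isomerase (GPI) converts glucose-6-phosphate to fructose-6-phosphate. Its main start had an H3K4me3 peak of 3023 bp and an H3K27Ac peak of 2916 bp with a score of 803. A further H3K4me3 peak with a score of 767 lay at an upstream start, 7051 to 4810 bp before the main start, where the gene also had its FAIRE peak with a height of 66.5. A coding gene without a symbol (ENSG00000266953) has a start within 1 kb of a start of GPI.

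Phosphofructokinase commits the sugar to glycolysis, and its subunits are named for muscle (PFKM), liver (PFKL) and platelets (PFKP). All 3 had H3K4me3 at the ceiling over the main start, with widths of 2343 bp for PFKM, 2966 bp for PFKL and 4216 bp for PFKP. PFKP stood apart in H3K27Ac, with a promoter peak of 7690 bp at the ceiling, against 2552 bp with a score of 658 for PFKM and 2798 bp with a score of 1193 for PFKL. PFKP also had a distal H3K27Ac domain of 11.4 kb inside the gene (chr10:3131238-3142664), centred 27.2 kb after the start, with an H3K4me1 score of 664 and a FAIRE height of 168. H3K4me1 peaks covered 22.6% of the PFKP window, 4.61% of the PFKM window and none of the PFKL window. The second promoter of PFKM, 12.1 to 15.4 kb before its main start, shares its peaks with SENP1, a gene for a SUMO protease.

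Aldolases split fructose-1,6-bisphosphate. ALDOA, the form of muscle and most tissues, had an H3K4me3 peak of 5109 bp and an H3K27Ac peak of 7122 bp, both at the ceiling, with a FAIRE peak of height 54.8 over the start. ALDOC, the form of brain, had no promoter peak. Its nearest H3K4me3 peak was 4283 bp and its nearest H3K27Ac peak 4168 bp from the main start. H3K27Ac peaks covered 5.29% of its window, against 35.9% for ALDOA. Both windows also hold main starts of other coding genes, so these shares cannot be assigned to the aldolases alone. In ALDOA the promoter peak gave 7122 of the 16622 bp covered.

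Triose phosphate isomerase (TPI1) interconverts the products of aldolase, and glyceraldehyde-3-phosphate dehydrogenase (GAPDH, with the sperm form GAPDHS) carries out the oxidative step of the pathway. TPI1 had an H3K4me3 peak of 3884 bp and an H3K27Ac peak of 8905 bp with a score of 639, which also contained the start of SPSB2. GAPDH had an H3K4me3 peak of 6687 bp and an H3K27Ac peak of 12046 bp (chr12:6639237-6651282), with a FAIRE peak of 579 bp and height 58.2 over the start. Only 0.755% of H3K27Ac peaks were as wide. GAPDHS had no promoter peak, and its nearest H3K4me3 peak was 10618 bp away. GAPDH, TPI1 and ENO2 lie near each other on chromosome 12, with 333 kb from the main start of GAPDH to that of TPI1 and 47 kb from TPI1 to ENO2.

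Phosphoglycerate mutase moves the phosphate of phosphoglycerate. PGAM1, the form of brain and most tissues, had peaks of all 4 lists, with an H3K27Ac peak of 7398 bp and score 1358, an H3K4me1 peak with a score of 84.1 that ended 65 bp before the start, and a FAIRE peak of height 60.7 over it. The start of RRP12 lies within 1 kb of that of PGAM1. PGAM2, the muscle form, had no promoter peak, and its nearest H3K4me3 and H3K27Ac peaks were both 15160 bp away.

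Enolases form phosphoenolpyruvate. ENO1 is the general form, ENO2 the neuronal form and ENO3 the muscle form, and all 3 had H3K4me3 and H3K27Ac peaks over the main start. ENO1 had the widest peaks at a main start of all members, an H3K27Ac peak of 14319 bp (chr1:8928507-8942825) and an H3K4me3 peak of 8065 bp, and 0.4% and 0.416% of those lists were as wide. Its FAIRE peak, 1174 to 2535 bp before the start, had a height of 114. ENO2 had an H3K4me3 peak of 2991 bp and an H3K27Ac peak of 4744 bp with a score of 901, and an H3K4me1 peak with a score of 71.1 covered its start, with no FAIRE peak within 1 kb. A start of LRRC23 lies within 1 kb of an alternative start of ENO2.

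The peaks at ENO3 were shared with a neighbour. Its H3K4me3 peak of 7068 bp ran from 6490 bp before to only 577 bp after the main start, its H3K27Ac peak of 8287 bp from 7432 bp before to 854 bp after, and both contained the start of PFN1, the gene for the actin-binding protein profilin. Whether these marks belong to the start of ENO3 cannot be told apart from those of PFN1 with peak bounds alone.

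Pyruvate kinase makes pyruvate and ATP. PKM, which encodes the muscle and tumour forms, had an H3K4me3 peak of 7195 bp and an H3K27Ac peak of 12232 bp (chr15:72513841-72526072), both at the ceiling. Inside the gene, an H3K4me1 peak of 8823 bp with a score of 212 began 3392 bp after the start, and FAIRE peaks with heights of 51.6, 67.8 and 47 lay at its starts. PKLR, the form of liver and red cells, had no promoter peak, with the nearest H3K27Ac peak 5763 bp and the nearest FAIRE peak 6756 bp away.

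Lactate dehydrogenase interconverts pyruvate and lactate. LDHA, the muscle-type subunit and a known HIF target, had all 4 marks at its starts. LDHB, the heart-type subunit, had all 4 as well, and LDHC, the testis form, had none. The H3K4me1 call of LDHA came from a peak at an alternative start, 7022 to 14351 bp after the main start. This call was lost when only starts of protein-coding transcripts were counted. The LDHA promoter had an H3K4me3 peak of 3858 bp and an H3K27Ac peak of 5493 bp at the ceiling (chr11:18413888-18419380), with FAIRE peaks of height 57.7 over the start and 112 from 967 to 2274 bp after it. A distal H3K27Ac peak of 4414 bp at the ceiling (chr11:18403635-18408048) was centred 10.3 kb before LDHA and held a FAIRE peak of height 151 and H3K4me1 with a score of 72.7. At LDHB the H3K27Ac peak was 3771 bp wide with a score of 2317, a FAIRE peak of height 92.5 covered the start, and the H3K4me1 peak with a score of 107 began 1317 bp after it. The LDHB start is shared with a coding gene that has no symbol (ENSG00000285854).

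LDHC lies next to LDHA, with 17.8 kb between their main starts, so their windows share peaks. The H3K4me3 peak in the LDHC window was that of LDHA, 14740 bp from the LDHC start. The nearest H3K27Ac peak to the LDHC start was 3088 bp away and weak, with a score of 186, and it crossed the end of LDHA.

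**Figure D4:**
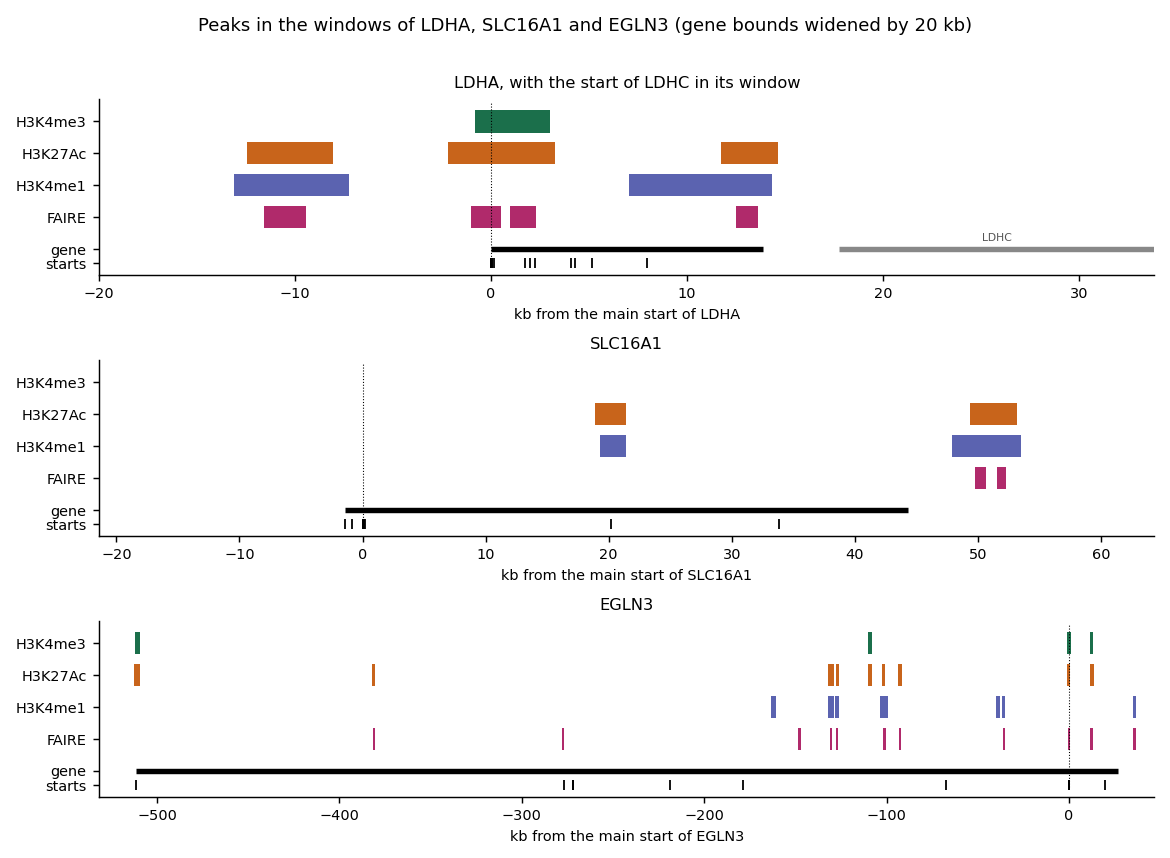
Peaks of the 4 lists in the windows of LDHA (with LDHC in grey), SLC16A1 and EGLN3, by distance in kb from the main start of each (dotted line), with gene bounds as black bars and annotated starts as ticks. In the EGLN3 panel the narrowest bars are drawn wider than the peaks so that they can be seen, and the SLC16A1 panel has no H3K4me3 peak.

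The PFKFB enzymes make and break fructose-2,6-bisphosphate, the activator of phosphofructokinase. PFKFB2, PFKFB3 and PFKFB4 had H3K4me3 at the ceiling over the main start, with widths of 5437 bp, 5229 bp and 3218 bp. PFKFB1, the liver form, had no peak within 1 kb of its main start, and its promoter calls came from an upstream start near peaks that contain the start of APEX2, 4872 to 7546 bp before its main start. PFKFB2 had an H3K27Ac peak of 6930 bp at the ceiling and a FAIRE peak of height 103 over the start, and it shares its promoter with YOD1. An H3K27Ac domain of 12669 bp (chr1:207190630-207203298), with an H3K4me1 score of 335 and 5 FAIRE peaks, lay 29.7 kb before PFKFB2 but nearest to the start of another gene.

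PFKFB3, a known HIF target in tumours, had promoter peaks at several starts. Besides the main start, H3K4me3 peaks at the ceiling lay 56.5 to 59.3 kb and 37.4 to 40.1 kb before it, with H3K27Ac scores of 1674 and 623 there and 1982 at the main start. None of these starts had H3K4me1 or FAIRE. PFKFB4 had both, with an H3K4me1 peak of 14672 bp, wider than all but 0.411% of its list, that covered the start, an H3K27Ac peak with a score of 1326 and a FAIRE peak of height 64.6. A neighbouring H3K27Ac peak of 8136 bp at the ceiling lay 2935 to 11070 bp before the start. This peak and the H3K4me1 peak both contain the start of UCN2, so the width of the latter cannot be assigned to PFKFB4 alone.

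Monocarboxylate transporters carry lactate out of or into the cell, SLC16A1 (MCT1) in most tissues and SLC16A3 (MCT4) in strongly glycolytic cells, where it is a known HIF target. The pair contrasted sharply in these lists. SLC16A3 had an H3K4me3 peak of 5538 bp and an H3K27Ac peak of 7344 bp (chr17:80184380-80191723), both at the ceiling. H3K27Ac peaks covered 30.6% of its window, which also holds the main starts of 2 other coding genes. SLC16A1 had no H3K4me3 peak in its window, and the nearest was 104108 bp from its main start. Its promoter calls came from an alternative start inside the gene, where an H3K27Ac peak with a score of 434 and an H3K4me1 peak with a score of 114 lay 18.9 to 21.4 kb after the main start. A distal H3K27Ac peak of 3797 bp with a score of 1139.6 (chr1:113445647-113449443), centred 51.3 kb after the main start and beyond the gene end, had an H3K4me1 score of 563 and a FAIRE height of 76.7. H3K27Ac with H3K4me1 and no other promoter mark was found at 91 coding genes (0.453%).

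Pyruvate dehydrogenase kinase 1 (PDK1) blocks the entry of pyruvate into mitochondrial oxidation and is induced by HIF. It had an H3K4me3 peak of 3151 bp, an H3K27Ac peak of 5905 bp with a score of 1997, and, ending 242 bp before the start, an H3K4me1 peak with a score of 298, the highest H3K4me1 score at a main start among the members. The nearest FAIRE peak was 2699 bp from its start.

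Of the HIF alpha subunits, HIF1A is expressed in most cells and EPAS1 (HIF2A) in fewer, and ARNT is their common partner. HIF1A had an H3K4me3 peak of 8037 bp and an H3K27Ac peak of 12306 bp over the start, the latter with a score of 817, far from the ceiling. The stronger acetylation lay around the end of the gene, in a peak of 14747 bp at the ceiling (chr14:62209906-62224652) from 47.7 kb to 62.4 kb after the main start, together with an H3K4me3 peak of 5910 bp. The peak at the gene end contains an annotated alternative start of HIF1A and was counted as a promoter peak. H3K27Ac peaks covered 52% and H3K4me1 peaks 41.5% of the HIF1A window, the largest shares of the 44 members. The window also holds the main start of another coding gene, so these shares cannot be assigned to HIF1A alone. The 3 distal H3K27Ac peaks of HIF1A were weak, with scores of 82.45, 56.94 and 54.68. A FAIRE peak of height 101 covered the HIF1A start.

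EPAS1 had an H3K4me3 peak of 4930 bp and an H3K27Ac peak of 4845 bp with a score of 1546, with no FAIRE peak within 8727 bp of its main start. It held 4 distal H3K27Ac peaks, of which the strongest was centred 18.2 kb after the start with a score of 1198 and a FAIRE height of 61.4, and 2 had scores of 65.7 and 62. ARNT had an H3K4me3 peak of 3823 bp, an H3K27Ac peak of 3186 bp with a score of 1061 and a FAIRE peak of height 122 over the start, the highest at a main start among the members, and no distal H3K27Ac peak.

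The prolyl hydroxylases EGLN1 (PHD2) and EGLN3 (PHD3) mark HIF alpha subunits for degradation, and EGLN3 is itself strongly induced by hypoxia. EGLN1 had wide peaks at the ceiling, 5264 bp for H3K4me3 and 5290 bp for H3K27Ac. At EGLN3 the peaks were narrow and weak, 2038 bp with a score of 2183 for H3K4me3, the lowest such score at a main start among the members, and 2069 bp with a score of 304 for H3K27Ac, while a FAIRE peak of height 45.2 covered the start. EGLN3 nevertheless held 7 distal H3K27Ac peaks, the most of any member, because its annotated bounds span 538548 bp. The strongest of them, with a score of 1900.4, an H3K4me1 score of 596 and a FAIRE height of 119 (chr14:34549077-34552328), was centred 130 kb before the main start. The bounds reach another promoter, that of SPTSSA, whose peaks lay 510 kb to 512 kb before the main start. EGLN1 held 2 distal H3K27Ac peaks, and the stronger was at the ceiling 26.8 kb after the start with an H3K4me1 score of 357 and a FAIRE height of 99.4.

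Among the hypoxia-induced genes, VEGFA encodes the angiogenic growth factor, ADM the vasodilator peptide adrenomedullin, BNIP3 a mitophagy receptor, P4HA1 a collagen prolyl hydroxylase, ANKRD37 an ankyrin repeat protein and NDRG1 a stress-responsive protein linked to differentiation. VEGFA had an H3K4me3 peak of 6790 bp and an H3K27Ac peak of 7751 bp (chr6:43736559-43744309), both at the ceiling and both extending mainly into the gene, with no H3K4me1 peak within 26877 bp or FAIRE peak within 27933 bp of the main start. A distal H3K27Ac peak 28.8 kb after the VEGFA start had a score of 352 and a FAIRE height of 124. ADM had peaks of 7291 bp and 9744 bp, at the ceiling in both lists, and a start of SBF2 lies within 1 kb of a start of ADM. Neither VEGFA nor ADM had a FAIRE peak within 1 kb of a start, and 7 FAIRE peaks lay in the ADM window.

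BNIP3 had an H3K4me3 peak of 4221 bp and an H3K27Ac peak of 5057 bp with a score of 1827, with the nearest FAIRE peak 1342 bp from its start. P4HA1 had an H3K27Ac peak of 4411 bp with a score of 2799.8 and a FAIRE peak of height 80 over the start, and a distal peak with a score of 2064 lay 52.3 kb after the start. ANKRD37 had an H3K27Ac peak of 4095 bp at the ceiling that also contained the start of LRP2BP, with FAIRE of height 43.7 and H3K4me1 with a score of 56.4. NDRG1 had an H3K4me3 peak of 5205 bp, an H3K27Ac peak of 6559 bp with a score of 2571 and a FAIRE peak of height 154 at an upstream start, and a distal H3K27Ac peak with a score of 2158 and a FAIRE height of 159 lay 79.2 kb after the main start, beyond the gene end.

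The carbonic anhydrases CA9 and CA12 sit at the cell surface and help to export acid, and CA9 is among the genes most strongly induced by hypoxia in tumours. CA9 had no promoter peak in any list, with the nearest H3K4me3 peak 7856 bp and the nearest H3K27Ac peak 7515 bp from its main start, and a start of ARHGEF39 lies within 1 kb of an alternative start of CA9. CA12 had an H3K4me3 peak of 2265 bp with a score of 2836, but its H3K27Ac peak of 1580 bp had a score of only 76.8, the lowest at a main start among the members, and fell below a score of 100. Its H3K4me1 and FAIRE calls came from peaks near alternative starts, 30.8 to 51.3 kb inside the gene. Distal H3K27Ac peaks in CA12 were stronger than the promoter peak, with scores of 739 at 33 kb and 405 at 8.01 kb after the start.

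Across the isoenzyme and subunit families, 14 of 14 had at least 1 member with both H3K4me3 and H3K27Ac at a promoter, and 7 of 14 had a member with no promoter peak at all. Both marks were present in 35 of 44 members (79.5%) and in 61.3% of all coding genes. The members without peaks were thus paralogues of marked genes. A family of several genes has more than 1 chance of a member with both marks, and families of other genes were not counted. The contrast was complete in the aldolases, the glyceraldehyde-3-phosphate dehydrogenases, the phosphoglycerate mutases, the pyruvate kinases and the carbonic anhydrases, where 1 member had both marks and the other had no peak. For the carbonic anhydrases this rested on the weak H3K27Ac peak of CA12, and with stricter peaks the count of families was 13 of 14. With the most upstream start only it was 12, without the glucose and lactate transporters. In the phosphofructokinases, the enolases, the PFKFB enzymes, the HIF alpha subunits and the prolyl hydroxylases every member had both marks. The PFKFB enzymes were counted with PFKFB1, whose peaks contain the start of APEX2 and were lost at the main start, and the enolases with ENO3, whose peaks contain the start of PFN1. With the most upstream start only, every member had both marks in 3 of these 5 families, but not in the PFKFB enzymes and the HIF alpha subunits. Under that setting the calls of PFKM, ENO3 and EGLN3 came from peaks that contain the starts of SENP1, PFN1 and SPTSSA.

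Wide promoter peaks were frequent among the members that had a peak. The median width at the main start was 3978 bp for H3K4me3 and 5557 bp for H3K27Ac, against 2952 bp and 3169 bp over the coding genes with such peaks. With limits chosen after the widths were seen, H3K4me3 was 5 kb or wider at 14 of 35 members (40%), against 5.94% of coding genes, and H3K27Ac was 10 kb or wider at 4 of 34 (11.8%), against 2.07%. The 14 were SLC2A1, ALDOA, GAPDH, ENO1, ENO3, PKM, PFKFB2, PFKFB3, SLC16A3, HIF1A, EGLN1, VEGFA, NDRG1 and ADM, and the 4 were GAPDH, ENO1, PKM and HIF1A. Whether read depth or gene length contributed to these widths was not tested.

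CpG content at the start, a comparison chosen after the values were seen, differed in its median between marked and unmarked members, but their ranges overlapped. The ratio of observed to expected CpG in the 300 bases had a median of 0.85 in the 35 members with H3K4me3 at the main start and 0.25 in the 9 without, and over coding genes these medians were 0.86 and 0.31. SLC16A1 and LDHC were CpG-rich without a peak, with ratios of 1.08 and 0.99. GAPDHS, without a peak, had a ratio of 0.77, which equals the median of all coding promoters. ALDOC, also without a peak, had a ratio of 0.58, above those of the marked members SLC2A3 (0.48), ADM (0.52) and LDHB (0.55). Among the 1063 coding promoters with a ratio of at least 1.08, 92.4% had H3K4me3 at the main start. In the other direction, ENO3 and PFKM had ratios of 0.16 and 0.25 and H3K4me3 peaks, where 5.83% and 7.49% of coding promoters with ratios at or under theirs had one. The peak of ENO3 contains the start of PFN1, so neither its presence at a CpG-poor start nor its width can be assigned to ENO3. The letters TATAAA, on either strand, were found in 8 members, 18.2%, against 9.82% of coding promoters.

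**Figure D5:**
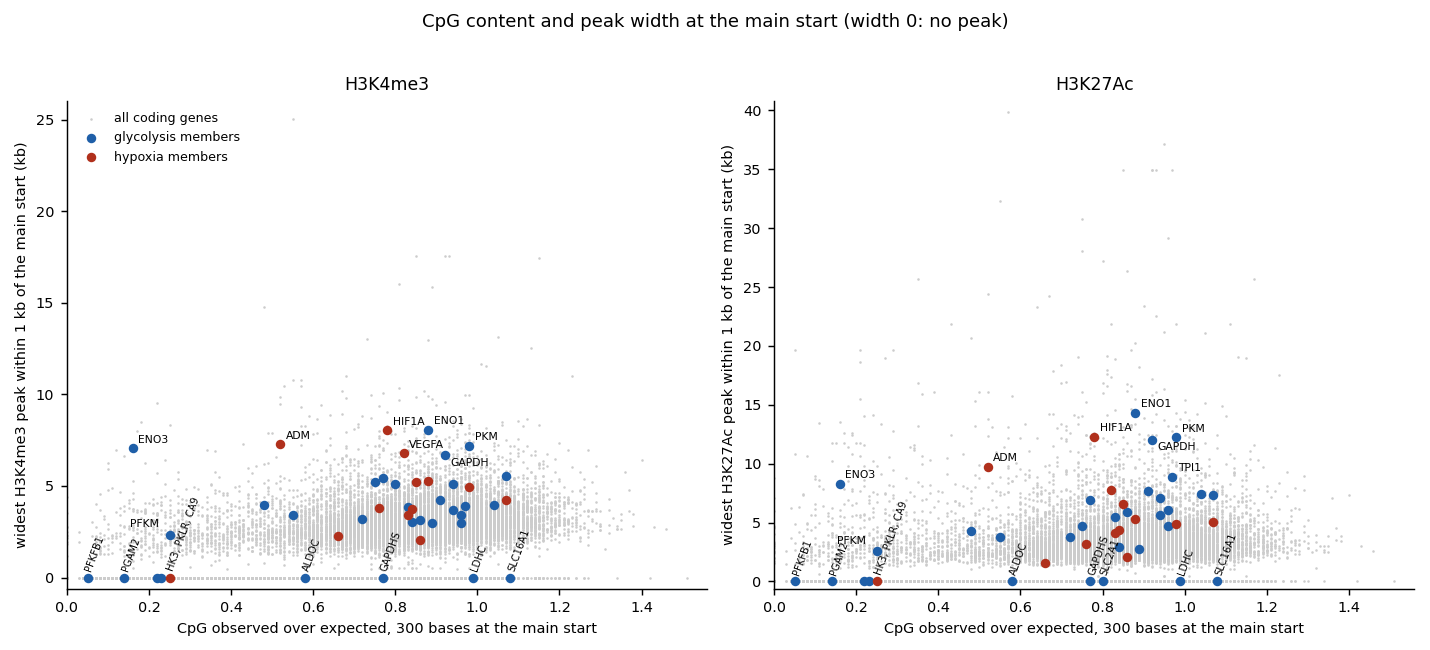
Width in kb of the widest H3K4me3 (left) and H3K27Ac (right) peak within 1 kb of the main start against the ratio of observed to expected CpG in the 300 bases at that start, for glycolysis members (blue), hypoxia members (red) and all coding genes (grey), with a width of 0 for no peak. SLC16A1 and LDHC lie at 0 with ratios of 1.08 and 0.99, and ENO1 has the widest H3K27Ac peak of the members at 14.3 kb.

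Away from starts, 22 of the 44 members (50%) had a distal H3K27Ac peak in their window, against 38.5% of coding genes, and the windows held 45 such peaks. Of these, 38 shared sequence with a FAIRE peak (84.4%, against 72.9% of distal peaks in the windows of all coding genes), 31 with an H3K4me1 peak (68.9%, against 67.2%) and 27 with both (60%, against 55.1%). A distal peak with both was present in the windows of 19 members (43.2%), against 24.1% of coding genes, in 11 of 31 glycolysis genes and 8 of 13 hypoxia genes. The median window was 80.5 kb for members and 67.3 kb for coding genes, so members also had more sequence in which a peak could fall. With gene bounds widened by 50 kb instead, the member windows held 72 distal peaks, a mean of 1.64 for each gene, against 1.32 for coding genes. For 38 of the 45 peaks the member had the nearest coding start, and 28 lay inside the gene bounds. The distal peaks of GAPDHS, PFKFB1, PFKFB2, SLC16A3 and BNIP3, and 1 each of SLC2A3 and ENO1, were nearest to the starts of other genes. Which gene a distal peak acts on was not tested.

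The other genes of the pathways differed from the members in part. Among 36 further genes of glycolysis and pyruvate metabolism, H3K4me3 was present at 27 promoters (75%), H3K27Ac at 26 (72.2%), H3K4me1 at 9 (25%), FAIRE at 14 (38.9%) and all 4 lists at 6 (16.7%), where all coding genes had 67.3%, 63.5%, 20%, 39.3% and 13.1%. The median widths at their main starts were 2620 bp for H3K4me3 and 3036 bp for H3K27Ac, below those of coding genes (2952 bp and 3169 bp), while those of the glycolysis members were 3939 bp and 5982 bp. In the further hypoxia genes counted next the medians were 3520 bp and 4333 bp, above those of coding genes, and in the hypoxia members they were 4576 bp and 4951 bp. Among 45 further hypoxia pathway genes, H3K4me3 and H3K27Ac were each present at 40 (88.9%), H3K4me1 at 11 (24.4%), FAIRE at 30 (66.7%) and all 4 lists at 9 (20%). Those without H3K4me3 were HIF3A, STC2, EPO, TF and FLT1, among them the kidney hormone erythropoietin and the liver iron carrier transferrin.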

How the data were processed

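Peaks were measured in MDAMB231 by ChIP-seq for 3 histone marks and by FAIRE-seq, with 2 libraries for each. The authors aligned the reads to hg19 with BWA, discarded poorly mapped and duplicate reads, analysed the libraries separately and combined, and called peaks against input. Histone peaks carry the deposited MACS score from default settings, the log10 of the p-value multiplied by minus 10. The signal of a FAIRE peak is the height the authors obtained with FindPeaks. Bounds were read as BED, with starts counted from 0, and printed starts are counted from 1. The members and lists were chosen with earlier results of these data known.

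Overlaps of at least 1 base with GENCODE v44lift37 genes were found in python 3.11.15 (pandas 2.3.3, numpy 2.4.6), by code whose counts on simulated intervals equalled those of bedtools 2.31.1, and plots were drawn with matplotlib 3.10.9. The numbering of the MACS peaks had no gaps. Sequence was read from GRCh37, the build of the files. No test was made, because each assay has 1 list of combined data here and genes are not replicates, and counts are given beside those of all coding genes.

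All members are named, with peak values for each isoenzyme family and hypoxia gene. Neighbours are named where their start lies within 1 kb of a member's start or a member's window holds another member. Other pathway genes are given as counts, with up to 6 genes in the minority state in list order for the hypoxia pathway. Promoter sequences hold ACGTG or GCGTG, with 1 gene for each contrast, and that gene, the neighbours APEX2, SPSB2 and UCN2, the drawing of SLC16A1 and the width limits were chosen after values were seen. The other loci drawn follow a rule, those of the members with the most distal H3K27Ac peaks in each group, the hexokinases, and LDHA with LDHC. The alternatives tried were other promoter widths, starts, overlaps, peak thresholds, windows and definitions of distal. Lists of other cell types and reads were not analysed here.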

Additional observations from a re-analysis of the deposited data

How the results depend on the processing

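No paired analysis was possible because the libraries of an assay were pooled into 1 list, and for the same reason no library could be left out in turn. The promoter counts of H3K4me3 and H3K27Ac stayed within 1.5 times their main values under every alternative tried, as did the number of members with a distal H3K27Ac peak and with one that met H3K4me1 and FAIRE. With the most upstream start only, members with promoter H3K4me1 numbered 8, with FAIRE 13, with all 4 lists 2 and with no peak 11. With stricter peaks (a MACS score of at least 100, FAIRE at or above its median height), H3K4me1 was present at 12 members and all 4 lists at 8, and CA12 lost its H3K27Ac call. At the main start only, H3K4me1 was present at 8 members and all 4 lists at 4. Each of these settings allows fewer starts or fewer peaks. With gene bounds widened by 50 kb, the windows held 72 distal H3K27Ac peaks. Requiring 200 shared bases changed no promoter call, and promoters of 500 bp lost both the H3K4me3 and the H3K27Ac call of PFKFB1. The main start only, the bounds of the main transcript and the count without EGLN3 were chosen after seeing the data. The lists hold no read totals, so the depth behind an absent peak is unknown.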
